A study of Arabidopsis thaliana with 40 samples.

Results

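The cytosolic ribosomal protein genes described here are 58 loci of Arabidopsis thaliana, given by their locus identifiers, out of 27416 genes in the count table. They encode 27 different proteins of the cytosolic ribosome, with 38 genes for the small subunit and 20 for the large subunit. For 23 of the 27 proteins the set holds 2 or more paralogous genes, 54 genes in all. The rule that lists these genes uses no measured value, but the list was drawn up with earlier results of these data known.

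The study sequenced shoot mRNA in 5 groups of 8 libraries (40 in all) by Lasy-Seq, starting from 200 ng of total RNA. Pots held clay granules, and the growth room gave 22 °C and a day of 16 h light and 8 h dark. The start group was sampled at 14 days of age, before any pretreatment. The water and ethanol groups followed 6 days later, after the pots had stood with their bottoms in water or in 20 mM ethanol. The frozen water and frozen ethanol groups had the same pretreatments and then a night at -4 °C in a rotating incubator. These 2 groups are labelled 2 h, and it is not stated whether that is recovery in the growth room. The labels name no ecotype, mutant or transgene.

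Each ribosome is made of a small subunit, which binds the messenger RNA and decodes it, and a large subunit, which joins the amino acids. Both are built in the nucleolus from ribosomal RNA and from proteins imported from the cytoplasm. In plants most of these proteins come from small families of near-equivalent genes, and the transcripts are abundant in growing tissue. Signalling through the TOR kinase, which responds to sugars and energy, is known to act on ribosome production and on phosphorylation of the small subunit protein RPS6.

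The table gave whole numbers of reads per gene, from 2098593 to 9211896 reads per library. CPM are counts scaled to a common library total with TMM factors (edgeR's cpm function), and 3 reads correspond to 1.43 CPM in the shallowest library and to 0.326 CPM in the deepest. The 5 shoot markers summed to group means of 76292 to 101178 CPM. The 9 root markers summed to group means of 89.0 to 137 CPM, highest in the start group, and 4 of them (EXPA7, COBL9, PIN2 and IRT1) were under 1 CPM in every group mean. Of the 4 shoot meristem markers, CLV3 and WUS were under 1 CPM in every group mean. Ethanol replicate 7, the shallowest library, and water replicate 6 had the lowest mean correlation with the other libraries of their group, at 0.927. Frozen water replicate 7 came next at 0.932, and the part of depth in these values was not tested.

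Promoters of ribosomal protein genes in plants are known for short elements: the telo box and site II, the latter recognised by TCP transcription factors. The 250 bases before each annotated gene start were read from the RefSeq genome TAIR10.1 and searched on both strands for the telo box AAACCCTA and for the site II letters TGGGCC or TGGGCT. Where matches overlapped, each was counted. Of the 58 promoters, 46 (79.3%) held a site II match, against 19.4% of the 26709 promoters of all nuclear genes in the table. A telo box match stood in 10 promoters (17.2%), against 4.44% of all. Both were found in 8 promoters (13.8%, against 1.4% of all) and 10 promoters held neither. A match is a description of letters, not a binding site.

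The first promoter printed here belongs to RPS9C, the gene with the smallest absolute change between the ethanol and start groups. RPS9B is the abundant paralog of RPS9C and is shown beside it. RPS4D had the largest fall outside the low-level genes, and RPL9B and RPL9C are near-identical genes with the smallest falls among called genes; these last 4 were chosen after their values were seen. Each sequence is given in the direction of transcription and ends at the base before the annotated start. Capitals mark site II and telo box matches on either strand. RPS9C is at chr5:15949660-15949909 (plus strand), RPS9B at chr5:4936430-4936679 (minus), RPS4D at chr5:23619209-23619458 (plus), RPL9B at chr1:12010629-12010878 (plus) and RPL9C at chr1:12022975-12023224 (plus), all in TAIR10.1.
RPS9C: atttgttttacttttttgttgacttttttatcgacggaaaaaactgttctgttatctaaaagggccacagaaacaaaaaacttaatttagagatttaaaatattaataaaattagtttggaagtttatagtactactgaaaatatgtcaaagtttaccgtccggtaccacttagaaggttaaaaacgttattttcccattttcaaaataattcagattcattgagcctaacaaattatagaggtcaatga
RPS9B: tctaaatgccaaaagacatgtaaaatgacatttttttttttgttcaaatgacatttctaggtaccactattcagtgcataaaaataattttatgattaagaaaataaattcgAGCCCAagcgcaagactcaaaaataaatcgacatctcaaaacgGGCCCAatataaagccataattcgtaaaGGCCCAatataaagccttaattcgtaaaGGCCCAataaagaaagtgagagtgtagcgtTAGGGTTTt
RPS4D: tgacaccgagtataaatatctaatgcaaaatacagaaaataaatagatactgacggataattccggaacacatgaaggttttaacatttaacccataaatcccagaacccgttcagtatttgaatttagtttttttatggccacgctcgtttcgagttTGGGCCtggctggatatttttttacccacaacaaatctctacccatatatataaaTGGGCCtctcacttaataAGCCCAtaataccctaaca
RPL9B: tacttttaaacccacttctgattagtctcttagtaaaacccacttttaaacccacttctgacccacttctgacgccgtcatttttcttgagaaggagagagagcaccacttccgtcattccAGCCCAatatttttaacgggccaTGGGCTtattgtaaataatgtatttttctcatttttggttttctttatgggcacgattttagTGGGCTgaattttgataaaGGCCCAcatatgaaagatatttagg
RPL9C: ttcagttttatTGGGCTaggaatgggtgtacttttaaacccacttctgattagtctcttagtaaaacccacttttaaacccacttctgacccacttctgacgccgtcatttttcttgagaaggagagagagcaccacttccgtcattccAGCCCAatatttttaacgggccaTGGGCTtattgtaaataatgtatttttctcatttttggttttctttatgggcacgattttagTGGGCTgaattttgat

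RPS9C had neither a telo box nor a site II match, and RPS9B had 1 telo box match and 4 site II matches. The promoters of RPL9B and RPL9C shared an unbroken stretch that covers 88.8% of the window, and held 4 site II matches each. Among tested genes, the median log2 fold change from start to ethanol was -0.63 in the 45 genes with a site II match and -0.63 in the 12 without one. For ethanol against water the same medians were -0.40 and -0.41. The level per length was 325 CPM per kb of transcript at the median with a match and 213.9 CPM per kb without. Length is that of the longest annotated transcript, and whether dividing by it suits these libraries was not tested.

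Levels within families spanned a wide range. Over all 40 libraries the mean level ran from 0.83 CPM per kb of transcript for RPS23A to 1457 CPM per kb for RPS23B, with a median of 311 CPM per kb. RPS23 is the small subunit protein at the decoding centre, and its 2 genes were the lowest and the highest of the set. After RPS23B the highest level was that of RPS9B (978 CPM per kb), which encodes a protein at the entry of the messenger channel. RPS23A had no read in 12 of the 40 libraries and at most 14 reads in any, did not pass the filter on low counts and was not tested, so the tests below cover 57 genes.

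A low class of 6 genes had a mean under 20 CPM per kb, among them RPS23A, RPS9C, RPL3B and RPL10B. The next gene up was RPL7C at 109.8 CPM per kb, so no gene lay between 20 and 109 CPM per kb. In each of these 6 cases the other paralogs in the set carried nearly all of the family's reads, counted over the genes of the set only. In the start group RPS9C gave 0.4005% of RPS9 reads, RPL10B 2.43% of RPL10 and RPL3B 3.24% of RPL3. The median level was 356 CPM per kb for small subunit genes and 286 CPM per kb for large subunit genes. Among tested genes the median transcript was 1015 bases for the small subunit and 1241.5 bases for the large subunit. The part of the division by length in this difference was not tested.

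**Figure D1:**
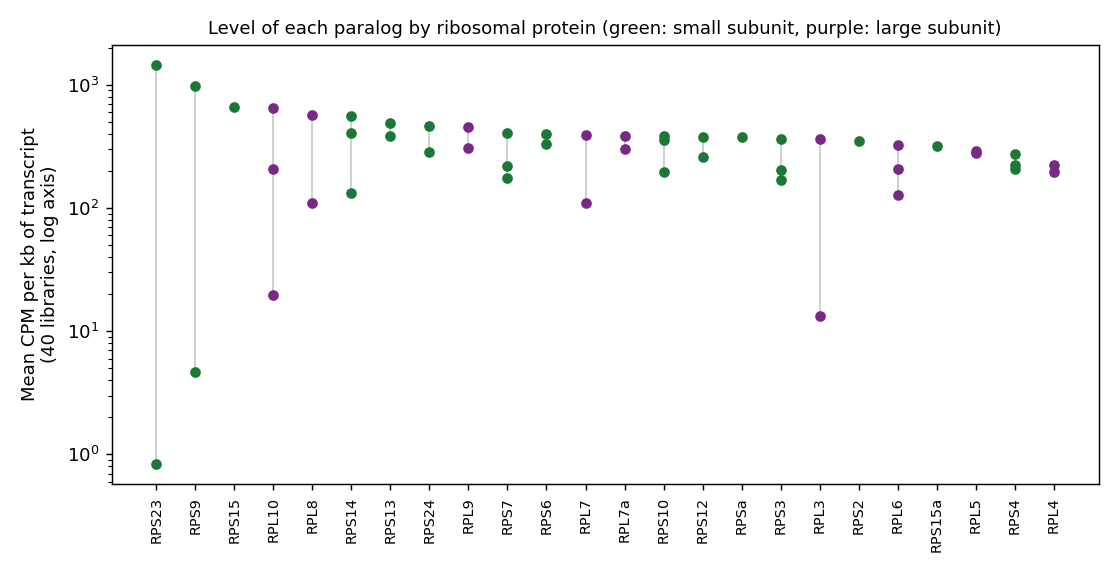
Mean level of 51 of the 58 genes in CPM per kb of transcript over 40 libraries (vertical log axis), by ribosomal protein (horizontal axis, 24 proteins), green for small and purple for large subunit proteins, with a grey line joining paralogs. RPS23, RPS9, RPL10 and RPL3 each have 1 gene under 20 CPM per kb, and the 47 other genes plotted lie between 109.8 and 1457 CPM per kb.

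Together the 58 genes took 2.56% ± 0.077 (SD, n = 8) of all reads in the start group. Their share was 2.20% ± 0.111 in the water group and 1.72% ± 0.160 in the ethanol group (SD, n = 8 each). It was 2.22% ± 0.148 in the frozen water group and 1.99% ± 0.210 in the frozen ethanol group (SD, n = 8 each). All 8 water libraries, at 2.00% to 2.36%, lay below the lowest start library at 2.48%, and all 8 ethanol libraries, at 1.498% to 1.98%, lay below the lowest water library. The frozen ethanol libraries, at 1.72% to 2.29%, overlapped the ethanol libraries and the frozen water libraries, which ran from 2.09% to 2.47%. In bulk shoots, fewer cells with many ribosomes and less ribosomal protein mRNA per cell cannot be told apart. A total of 57 of the 58 genes had their highest group mean in the start group (the exception was RPS9C), and 51 had their lowest in the ethanol group. The matching shares over all genes are not given here, so these counts only describe the set.

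**Figure D2:**
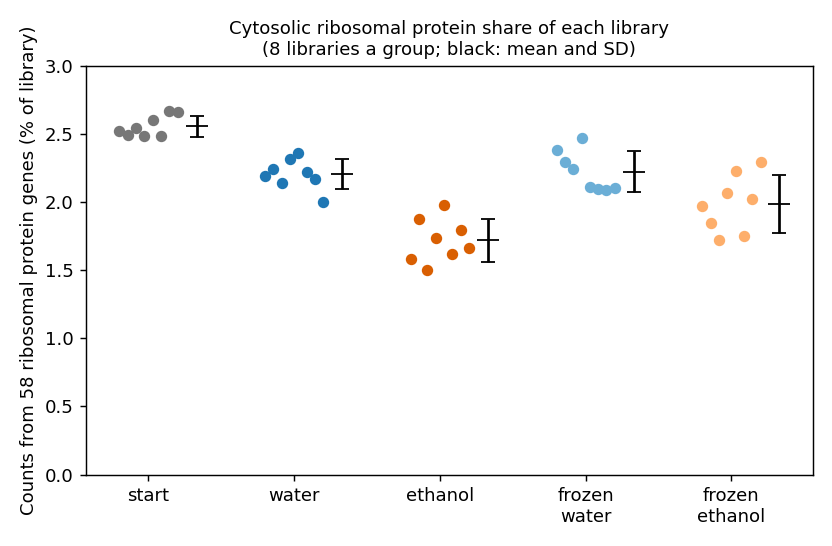
Percent of each library's reads that fell on the 58 ribosomal protein genes (vertical axis) in the 5 groups (horizontal axis), 1 point per library, with the mean and SD in black. The start libraries lie at 2.48% to 2.67%, the ethanol libraries at 1.498% to 1.98%, the water and frozen water libraries lie between these ranges, and the frozen ethanol libraries, at 1.72% to 2.29%, overlap the ethanol range.

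The effect of 20 mM ethanol over 6 days was read by comparing the ethanol and water groups, which were sampled at the same age. Of the 57 tested genes, 53 fell on ethanol and the other 4 were not called, where 6.04% of all 16579 tested genes were lower and 3.93% higher. A call here is an adjusted p under 0.05 from edgeR's quasi-likelihood test with Benjamini-Hochberg adjustment over all tested genes. The median log2 fold change of the set was -0.40, a median that fell by 24.4%, against 0.01 over all tested genes. Of 37 tested small subunit genes 35 fell, with a median of -0.40, and of 20 large subunit genes 18 fell, with a median of -0.41. The 4 genes without a call were all of the low class, among them RPL10B, RPL3B and RPS9C, with log2 fold changes of -0.37, -0.37 and -0.16.

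RPS4D (AT5G58420, chr5:23619459-23621094 in TAIR10.1, plus strand, 4 exons), a protein of the small subunit body, had 226.8 to 278 CPM in water (median 267) and 142 to 209.1 CPM in ethanol (median 169). No ethanol library reached the lowest water library. Its log2 fold change was -0.57 ± 0.07 (SE, n = 8 and 8, edgeR adjusted p = 5.86e-09).

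The smallest called falls were those of RPL6B, RPL9C and RPS15aA. RPL6B, of the large subunit, had 204.7 to 233.3 CPM in water (median 211.3) and 147 to 210 CPM in ethanol (median 179), with a log2 fold change of -0.27 ± 0.06 (edgeR adjusted p = 0.000758). RPL9C (AT1G33140, chr1:12023225-12024783, plus strand, 3 exons), known as PIGGYBACK2 from leaf shape mutants, had 468 to 525 CPM in water (median 505) and 344 to 490 CPM in ethanol (median 411), with -0.26 ± 0.06 (edgeR adjusted p = 0.000471). RPS15aA had 480 to 607 CPM in water (median 530) and 406 to 525 CPM in ethanol (median 445), with -0.26 ± 0.06 (edgeR adjusted p = 0.000481). In each of these 3 genes the libraries of both groups overlapped.

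**Figure D3:**
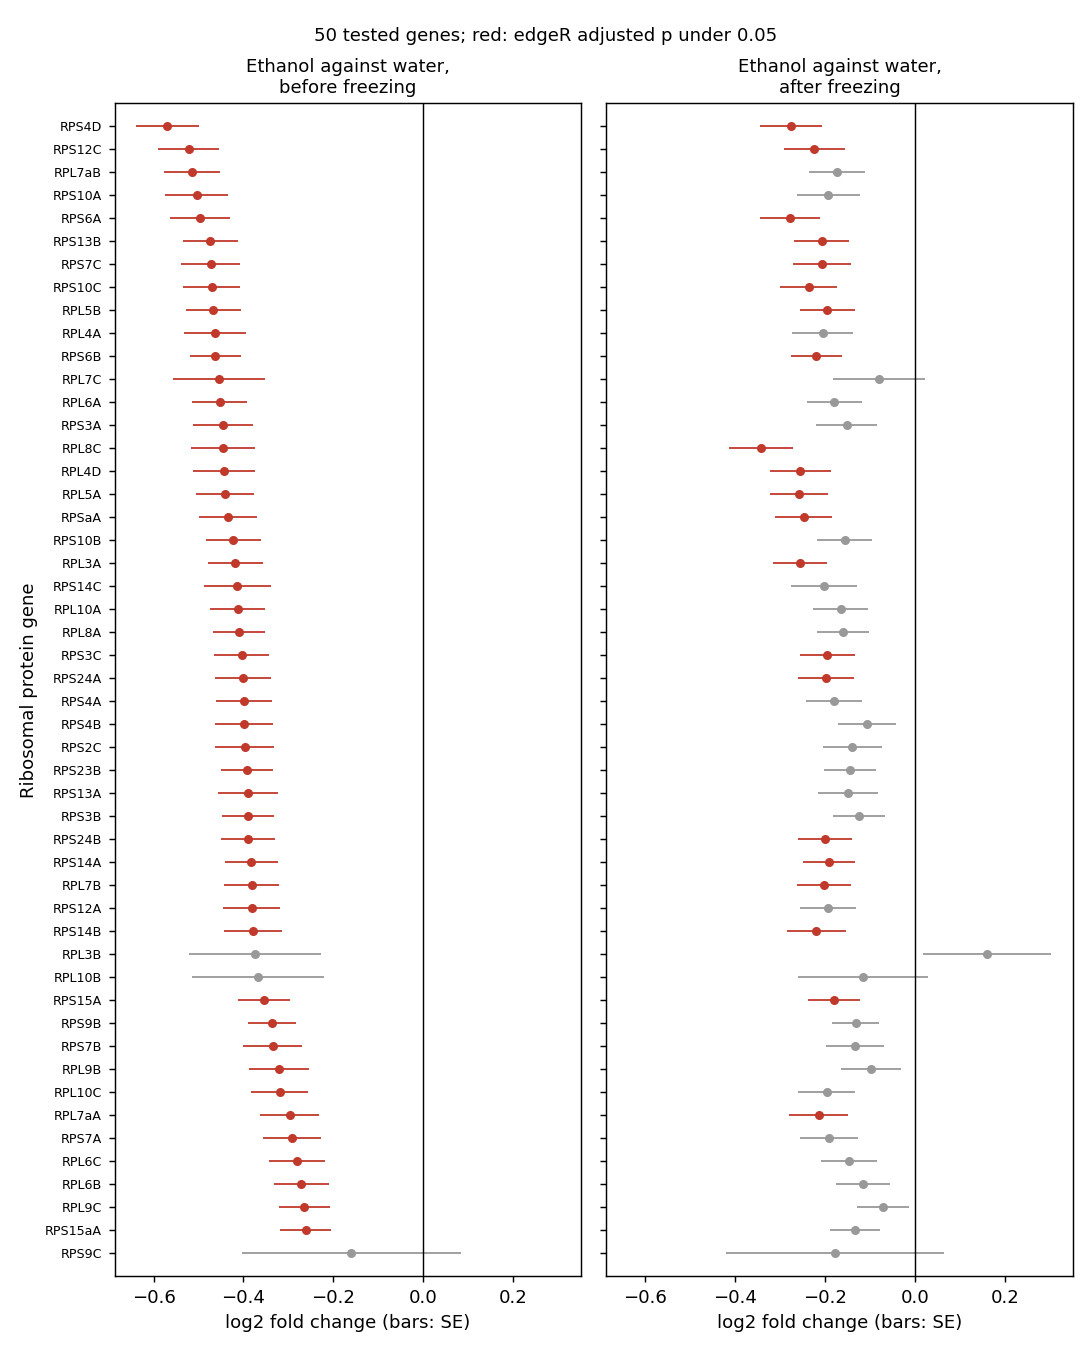
Log2 fold change of ethanol against water (horizontal axes, bars are SE, 8 libraries per group) for 50 of the 57 tested genes (vertical axis, ordered by the value before freezing), before freezing on the left and after freezing on the right, red where the edgeR adjusted p was under 0.05. On the left 47 of the 50 genes are red around a median of -0.40, and on the right 21 are red around a median of -0.19.

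Water against start compares plants 6 days apart, in which age, the wet pots and the harvest hour, which is not given, cannot be told apart. Of the 57 genes 45 fell, where 12.6% of all tested genes were lower and 11.9% higher, and the other 12 were not called. The median log2 fold change was -0.21, against -0.01 over all genes. RPL10B (AT1G26910, chr1:9321650-9323028, plus strand, 2 exons), a minor gene for a protein near the tRNA sites, had 22.0 to 36.1 CPM at the start (median 27.3) and 13.3 to 24.7 CPM in water (median 17.9). The ranges overlapped, and the log2 fold change was -0.62 ± 0.14 (edgeR adjusted p = 0.0003). RPL3B, the minor gene of a protein close to the peptidyl transferase centre, had 16.9 to 33.5 CPM at the start and 16.0 to 25.1 CPM in water, overlapping, with -0.41 ± 0.14 (edgeR adjusted p = 0.0229). RPL7aA had 415 to 475 CPM at the start and 303 to 399 CPM in water, with no overlap and -0.37 ± 0.07 (edgeR adjusted p = 3.93e-06).

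The smallest called falls of that comparison were those of RPS10C, RPL8A and RPS15A, with log2 fold changes of -0.16 ± 0.06, -0.15 ± 0.06 and -0.15 ± 0.06 and edgeR adjusted p of 0.0492, 0.04 and 0.0477. With 1 library left out and the scaling factors and tested genes held, an alternative chosen after the data were seen, the count of 45 was 38 to 47. In those 40 fits RPS10C kept its call in 19, RPL8A in 30 and RPS15A in 23. When the scaling and the filter were also set anew, which changed the TMM reference library in all 40 fits, the count was 28 to 39 and these 3 genes had no call.

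Ethanol against start spans both steps and shares the start libraries with the preceding comparison. In it 56 of 57 genes fell, where 16.6% of all genes were lower and 15.3% higher, with a median log2 fold change of -0.63, a median that fell by 35.4%. RPL10B had 5.06 to 21.9 CPM in ethanol (median 14.0), below every start library, with -0.99 ± 0.14 (edgeR adjusted p = 1.72e-08). RPS4D had 280 to 346 CPM at the start (median 311), above every ethanol library, with -0.83 ± 0.07 (edgeR adjusted p = 1.98e-17).

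At the other end of that comparison, RPS7A, RPL9B and RPL9C had the smallest called falls, at -0.46 ± 0.06, -0.39 ± 0.07 and -0.30 ± 0.06, with edgeR adjusted p of 4.53e-09, 1.08e-06 and 8.68e-06. RPL9B and RPL9C differ in 5 bases of their 585 coding bases (99.1% identity), the closest of the 39 paralog pairs, so reads cannot be assigned between them with certainty. The uncalled gene was RPS9C (AT5G39850, chr5:15949910-15951475, plus strand, 3 exons), at 3.21 to 6.59 CPM at the start and 2.89 to 6.65 CPM in ethanol, with a log2 fold change of 0.03 ± 0.25 (edgeR adjusted p = 0.95). DESeq2, which also took in RPS23A, called 57 of 58 genes lower. With 9 to 48 reads per library, the precision for RPS9C was low.

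The share that each paralog gave of the reads of its family, counted over the genes of the set only, moved by few percentage points between groups. The largest shift between any 2 group means was 3.78 points (RPL7aA and RPL7aB), and the median over 54 genes was 2.00 points. RPL7aB gave 59.3% ± 2.27 (SD, n = 8) of RPL7a reads in water and 55.5% ± 1.40 in ethanol. RPS4D gave 28.2% ± 1.53 of RPS4 reads at the start and 25.0% ± 1.75 in ethanol. Reads were also summed over the genes of the set for each of the 27 proteins. Of these sums 22 fell from start to water, all 27 from start to ethanol and all 27 from water to ethanol. Other genes of some of these proteins, such as RPS15aF, lie outside the set and enter neither the sums nor the shares. Coding sequences of the 39 paralog pairs were 72.6% to 99.1% identical, with a median of 86.6% and 7 pairs over 90%.

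Freezing after water was read by comparing the frozen water and water groups. The cold, the night in the rotating incubator, the later harvest and the step labelled 2 h cannot be told apart in it. The same holds for freezing after ethanol and for the difference between these effects, and freezing here means all of them together. Of the 57 genes 13 fell, where 6.97% of all tested genes were lower and 7.03% higher, with a median log2 fold change of -0.14. With the trend of counts with transcript length removed, described below, none was called and the median was 0.04. The share of reads on the set was 2.20% in water and 2.22% in frozen water, as given above. RPS10A (AT4G25740, chr4:13107136-13108827, minus strand, 5 exons), of the head of the small subunit, had 202.8 to 258 CPM in water (median 222.5) and 152 to 201.3 CPM in frozen water (median 176). No library of one group reached the other, and the log2 fold change was -0.34 ± 0.07 (edgeR adjusted p = 0.000245). RPS3B, a protein at the messenger entry, had 423 to 472 CPM in water and 357 to 444 CPM in frozen water, with -0.23 ± 0.06 (edgeR adjusted p = 0.00324). RPS7A had 187 to 221.9 CPM in water and 141 to 198 CPM in frozen water, with -0.22 ± 0.06 (edgeR adjusted p = 0.0101). The libraries of RPS3B and of RPS7A overlapped between the groups.

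RPS10C and RPL8A were among the smallest called falls after freezing on water, at -0.18 ± 0.06 and -0.16 ± 0.06, with edgeR adjusted p of 0.049 and 0.0438. Of the 13 genes 11 were among the 37 tested small subunit genes and 2 among the 20 large subunit genes. With the length trend removed no gene of either subunit was called, and the medians were 0.045 and 0.035. Whether the subunits differ was not tested. With the trend kept and the scaling held, the count of 13 was 8 without water replicate 4 or frozen water replicate 6, and 7 without frozen water replicate 8.

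Freezing after ethanol was read by comparing the frozen ethanol and ethanol groups. Of the 57 genes 4 rose and the other 53 were not called, where 4.26% of all genes were higher and 5.72% lower, and the median log2 fold change was 0.09. RPL4D and RPL4A, both genes of a protein that lines the exit tunnel of the large subunit, had 245 to 331 CPM and 215.3 to 292 CPM in ethanol, and 262 to 398 CPM and 241 to 335 CPM in frozen ethanol. Both pairs of groups overlapped, with log2 fold changes of 0.22 ± 0.07 and 0.21 ± 0.07 (edgeR adjusted p = 0.0276 and 0.0363). RPS4B had 259 to 370 CPM in ethanol and 292 to 418 CPM in frozen ethanol, with 0.20 ± 0.06 (edgeR adjusted p = 0.0312). RPL7aB had 303 to 415 CPM in ethanol and 318 to 474 CPM in frozen ethanol, with 0.19 ± 0.06 (edgeR adjusted p = 0.0386). For both genes the groups overlapped. With the scaling held, the count of 4 was 0 without ethanol replicate 1, 3, 6 or 8 or frozen ethanol replicate 4, 5 or 8, and 1 without frozen ethanol replicate 7. It was 11 without frozen ethanol replicate 3, and 9 without ethanol replicate 5 or frozen ethanol replicate 6. It was also 0 when the fit used only the compared groups.

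Transcript length moved with freezing in these libraries. The slope of a gene's log2 CPM, taken as the deviation from its mean over libraries, on log2 transcript length was 0.158 ± 0.051 in the frozen water group and 0.134 ± 0.046 in the frozen ethanol group (SD, n = 8 each). It was -0.105 ± 0.040 in the water group and -0.083 ± 0.040 in the ethanol group (SD, n = 8 each). The tested ribosomal protein transcripts are short, with a median of 1127 bases (749 to 1738), against 1740 bases over all tested genes with a length.

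After each library's trend with length was taken out by offsets, edgeR called no gene after freezing on water, where 1.11% of all genes were lower and 1.06% higher. Of the 57 genes 4 had an unadjusted p under 0.05, all higher, where 7.97% of all genes had such a p and were higher, and the median log2 fold change was 0.04. With the trend kept, DESeq2 called 17 genes lower in that comparison. With the trend removed, 45 of the 57 genes rose after freezing on ethanol, where 2.36% of all genes were higher and 2.48% lower, and the median was 0.26 against 0.03 over all genes. RPL7aB then had 0.34 ± 0.06 (edgeR adjusted p = 0.000134) and RPL4D 0.27 ± 0.07 (edgeR adjusted p = 0.011). The 45 became 26 without frozen ethanol replicate 5, 27 without frozen ethanol replicate 8, 28 without ethanol replicate 3 and 30 without ethanol replicate 6, and ran to 46 over the libraries left out in turn, an alternative chosen after the data were seen in which the scaling and the filter were also set anew. The part of transcript length in the freezing calls was not tested beyond this.

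**Figure D4:**
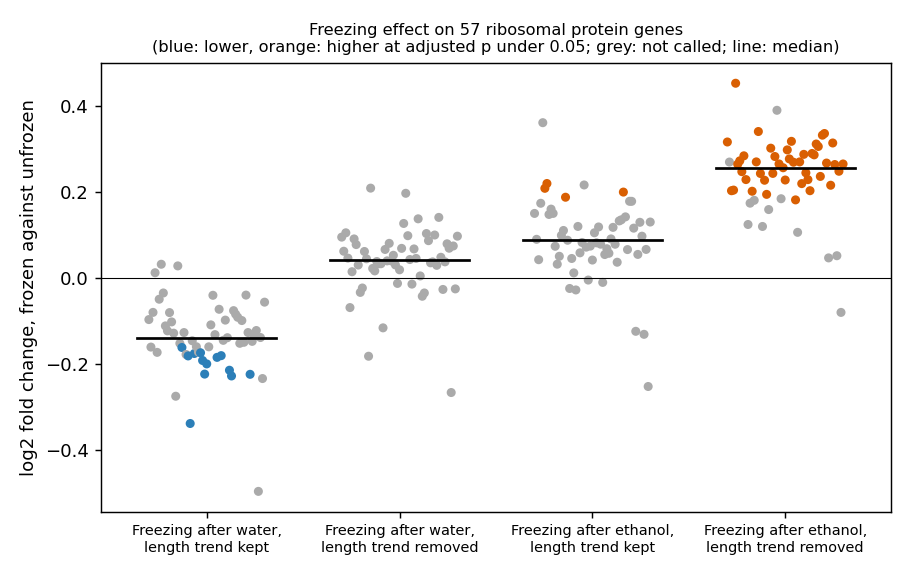
Log2 fold change of frozen against unfrozen groups (vertical axis, 8 libraries per group) for the 57 tested genes, after water and after ethanol, with the transcript length trend kept or removed; blue points are called lower, orange called higher, grey not called, and lines are medians. After water the median moves from -0.14 with 13 genes lower to 0.04 with none called, and after ethanol from 0.09 with 4 genes higher to 0.26 with 45.

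Ethanol against water was also compared among frozen plants. Of the 57 genes 23 were lower, where 2.75% of all genes were lower and 2.37% higher, and the median log2 fold change was -0.19. All 23 genes were also lower before freezing, where 53 of the 57 tested genes were lower. RPL8C (AT4G36130, chr4:17097405-17098906, plus strand, 2 exons), the lesser of the set's genes for a protein near the peptidyl transferase centre, had 121 to 161 CPM in frozen water (median 136) and 95.3 to 128 CPM in frozen ethanol (median 108). The groups overlapped, with -0.34 ± 0.07 (edgeR adjusted p = 0.00087). RPS6A, one gene of the protein phosphorylated by the TOR-dependent S6 kinase, had 451 to 529 CPM in frozen water and 315 to 505 CPM in frozen ethanol, with -0.28 ± 0.07 (edgeR adjusted p = 0.00453). RPS4D had 212.5 to 280 CPM in frozen water and 155 to 231.8 CPM in frozen ethanol, with -0.28 ± 0.07 (edgeR adjusted p = 0.00772). Both overlapped between the groups.

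The smallest called falls among frozen plants were those of RPL5B, a carrier of the smallest ribosomal RNA of the large subunit, RPS14A and RPS15A, at -0.20 ± 0.06, -0.19 ± 0.06 and -0.18 ± 0.06, with edgeR adjusted p of 0.0405, 0.0361 and 0.0477. With the scaling held, the count of 23 was 7 without frozen ethanol replicate 6, 8 without frozen ethanol replicate 3, 10 without frozen ethanol replicate 2, and 12 without frozen ethanol replicate 1 or frozen water replicate 1. It was 9 without frozen water replicate 4 and 35 without frozen ethanol replicate 5. The median stayed between -0.22 and -0.16 in those 40 fits. The count was 32 with the length trend removed, where 3.03% of all genes were lower and 2.25% higher.

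The difference between the 2 freezing effects, ethanol minus water pretreatment, was tested as an interaction in the same fit. The median log2 difference over the 57 genes was 0.22, against -0.0023 over all genes, and 56 of 57 values were above 0. No gene was called by edgeR or by DESeq2, where 0.0241% of all genes were called higher and 0.115% lower, while 43 of the 57 genes had an unadjusted p under 0.05, all of them higher, where 4.07% of all genes had such a p and were higher and 3.85% were lower. RPL7aB (AT3G62870, chr3:23242561-23244397, minus strand, 6 exons) had the smallest p, at 0.34 ± 0.09 (edgeR adjusted p = 0.0974). With the length trend removed the median was 0.20, no gene was called, against 0.0121% of all genes higher and 0.121% lower, and 31 had an unadjusted p under 0.05, all higher, where 3.51% of all genes did so and were higher. This comparison uses the same libraries as the freezing and ethanol comparisons above.

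The 146 other cytosolic ribosomal protein genes, of which 140 were tested, moved in the same direction as the set. From start to water 108 fell and 1 rose, from start to ethanol 139 fell and 1 rose, and from water to ethanol 132 fell and 1 rose, with a median of -0.40 in the last. The gene that rose in all 3 was P2C (AT3G28500), a protein of the acidic stalk of the large subunit, at 1.01 ± 0.30, 1.85 ± 0.29 and 0.83 ± 0.27 on the log2 scale (edgeR adjusted p = 0.00932, 1.82e-06 and 0.0401). RPS15aF and RPS20B had the smallest p in ethanol against water, at -0.61 ± 0.07 and -0.63 ± 0.07 (edgeR adjusted p = 3.19e-10 and 5.47e-10). After freezing 40 fell on water and 5 rose on ethanol, and 38 were lower in ethanol than in water among frozen plants. With the length trend removed the freezing counts were 2 higher on water and 105 higher on ethanol.

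The 30 ribosome biogenesis genes encode nucleolar factors that process ribosomal RNA. From water to ethanol 20 fell and 10 were not called, with a median of -0.52, and from start to ethanol 26 fell. GAR1, a protein of the pseudouridylation complex, had -0.63 ± 0.08 and NUC1, a nucleolin, had -0.57 ± 0.07 in ethanol against water (edgeR adjusted p = 4.19e-09 and 6.37e-09). From start to water 10 fell and 1 rose. After freezing 3 rose on water and 8 on ethanol, where 7.03% and 4.26% of all genes were higher, and on ethanol NUC1 had 0.41 ± 0.07 and RH7 had 0.45 ± 0.09 (edgeR adjusted p = 1.26e-05 and 0.000227), and 5 were lower in ethanol than in water among frozen plants. With the length trend removed none was called after freezing on water and 7 were higher on ethanol, among them NUC1 at 0.35 ± 0.07 and RH7 at 0.31 ± 0.09 (edgeR adjusted p = 0.000379 and 0.0203).

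Of the 35 translation factor genes 18 fell from start to water, 28 from start to ethanol and 20 from water to ethanol, with a median of -0.28 in the last. EEF1Balpha2, an exchange factor of elongation, and EIF4A1, an initiation helicase, had -0.42 ± 0.06 and -0.41 ± 0.06 in ethanol against water (edgeR adjusted p = 9.09e-08 and 1.15e-07). After freezing 10 rose and 3 fell on water, and 17 rose and 1 fell on ethanol. EIF3A and EIF3C, subunits of the initiation factor that binds the small subunit, had 0.71 ± 0.12 and 0.61 ± 0.09 after freezing on water (edgeR adjusted p = 8.22e-06 and 3.06e-07). With the length trend removed these 2 genes had 0.38 ± 0.11 and 0.30 ± 0.08 (edgeR adjusted p = 0.0391 and 0.0334). Among frozen plants 12 were lower and 1 higher in ethanol than in water. Their median transcript was 1866 bases, longer than that of the set, and with the length trend removed the freezing counts were 3 higher on water and 7 higher on ethanol.

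The 29 nuclear genes for plastid ribosomal proteins were read beside the cytosolic set. Of them 14 fell from water to ethanol, where 6.04% of all genes were lower, with a median of -0.17 and values of -0.27 to -0.08. With the length trend removed 9 fell in that comparison. From start to ethanol 28 fell and from start to water 5, where 16.6% and 12.6% of all genes were lower. After freezing 19 fell on water and 7 on ethanol, but with the length trend removed the median on water was -0.0057, against -0.23 with the trend kept, and 1 rose on ethanol. Among frozen plants the median for ethanol against water was -0.05. PRPL34 had -0.27 ± 0.06 in ethanol against water (edgeR adjusted p = 0.000479). Whether the plastid and cytosolic sets differ was not tested.

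Of the 12 genes of TOR and SnRK1 signalling 1 rose and 1 fell from start to water, where 11.9% of all genes were higher and 12.6% lower. From start to ethanol 3 rose and 1 fell, where 15.3% of all genes were higher and 16.6% lower. S6K1, an S6 kinase gene, fell from start to water (-1.01 ± 0.13, edgeR adjusted p = 5.72e-10) and from start to ethanol (-1.31 ± 0.13, edgeR adjusted p = 5.39e-14), while TOR rose in both (0.68 ± 0.23 and 0.76 ± 0.23, edgeR adjusted p = 0.0187 and 0.00515). KIN10, the catalytic subunit of the energy sensor SnRK1, rose from water to ethanol (0.42 ± 0.14, edgeR adjusted p = 0.0382). The other 11 genes were not called there, and the list median was 0.06, where 3.93% of all genes were higher and 6.04% lower. After freezing on water RAPTOR1B and LARP1A rose (0.86 ± 0.14 and 0.60 ± 0.15, edgeR adjusted p = 5.19e-06 and 0.00211), and after freezing on ethanol S6K1 and RAPTOR1B rose (0.55 ± 0.13 and 0.51 ± 0.14, edgeR adjusted p = 0.00284 and 0.00934). The other 10 genes were not called in either, where 7.03% and 4.26% of all genes were higher. With the length trend removed none of the 12 genes was called after freezing on water, and S6K1 was the 1 gene still called on ethanol (0.42 ± 0.13, edgeR adjusted p = 0.0452). The median transcript of the list was 2333 bases.

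The 10 markers of dividing cells summed to 150 ± 19.1 CPM in water and 125 ± 11.5 CPM in ethanol (SD, n = 8 each), ranges of 125 to 173 and 110 to 147 CPM. From water to ethanol PCNA1 and PCNA2, genes of the replication clamp, fell (-0.44 ± 0.13 and -0.41 ± 0.12, edgeR adjusted p = 0.0141 and 0.0188), and the other 8 were not called. Their sum was 154 ± 14.6 CPM in frozen water and 137 ± 13.1 CPM in frozen ethanol (SD, n = 8 each). The summed meristem markers were 12.6 ± 4.26 CPM in water and 16.8 ± 4.39 CPM in ethanol (SD, n = 8 each). The summed root markers were 95.02 ± 43.2 CPM and 96.0 ± 23.8 CPM (SD, n = 8 each), with medians of 74.4 and 96.3 CPM. Water replicate 6 had 197 CPM of root markers, the highest of its group. The share of reads from organelle genes was 2.03% ± 0.339 in water and 2.43% ± 0.573 in ethanol, and 2.99% ± 0.625 in frozen water and 3.41% ± 0.576 in frozen ethanol (SD, n = 8 each). The summed shoot markers were 94718 ± 5071 CPM in water and 87894 ± 5961 CPM in ethanol, and 78246 ± 5388 CPM in frozen water and 76292 ± 4927 CPM in frozen ethanol (SD, n = 8 each). Of these 5 markers 2 fell from water to ethanol, 3 after freezing on water and 4 after freezing on ethanol, and with the length trend removed 3 and 1 fell after freezing. STM, the meristem homeobox gene and 1 of 2 tested meristem markers, rose from water to ethanol (0.79 ± 0.26, edgeR adjusted p = 0.0415). The part of these markers in the ribosomal protein result was not tested; with organelle genes left out, 53 genes were again lower in ethanol than in water.

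**Figure D5:**
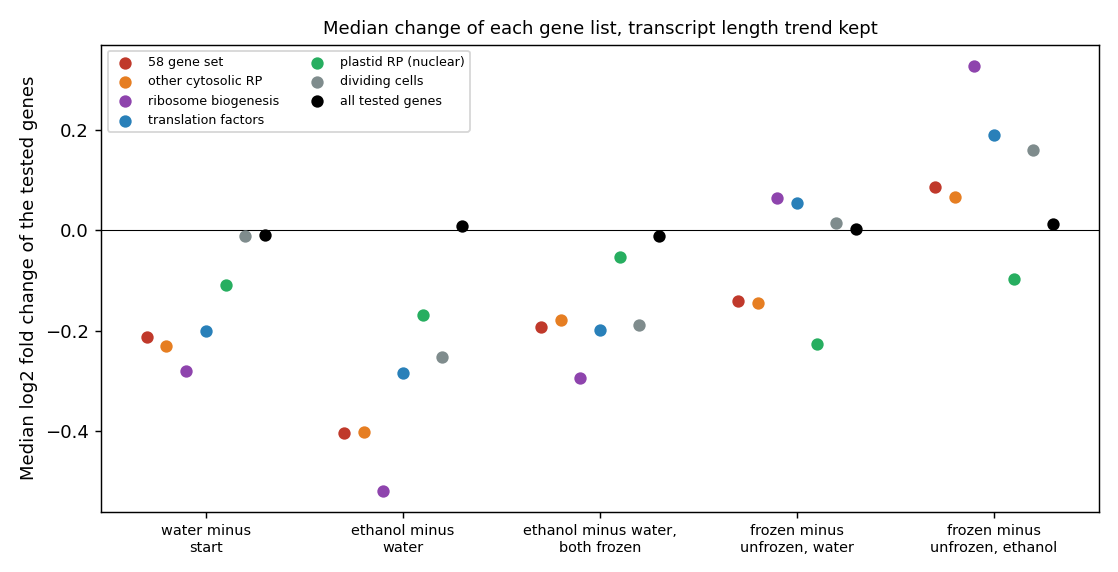
Median log2 fold change (vertical axis) of the tested genes of the 58 gene set, 5 other lists and all tested genes, in 5 comparisons (horizontal axis), from 8 libraries per group with the transcript length trend kept. The set and the other cytosolic ribosomal protein genes lie together at -0.40 for ethanol against water, with ribosome biogenesis genes at -0.52 and plastid ribosomal protein genes at -0.17.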

How the data were processed

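The authors deposited raw read counts per gene. The submitters' processing notes list bcl2fastq, Trimmomatic, HISAT2, featureCounts, DESeq2 and build TAIR10. Not given in the sources used here: versions, strand use and the handling of reads with several matches, which leaves counts of near-identical paralogs uncertain. A second deposited table of normalized values was not used.

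Members and lists were chosen with earlier results of these data known. Samples were grouped by their titles. The labels do not tell whether replicates are separate plants or pots. P-values therefore measure the spread between these libraries, which may be technical. Replicates differed by more than counting error (chi-square of 3.55 to 22.5 per degree of freedom between pairs). Depth was 2098593 to 9211896 counts, and floors of 3 counts cover counting error only.

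The test was edgeR 4.0.16 (R 4.3.3): filterByExpr over the 5 groups (16579 genes), TMM scaling, 1 model for all 40 libraries, the robust quasi-likelihood F test and Benjamini-Hochberg adjustment. SE values are the size of the log2 fold change over the root of its F statistic. The procedure was tested on simulated data. The 7 comparisons came from this fit. Alternatives were RLE size factors, no filter, DESeq2 1.42.0, only the compared groups, the replicate number as a block, each library left out in turn (with the scaling set anew or held), thinning, organelle genes left out, the transcript length trend removed (spline with 4 degrees of freedom, as offsets), water replicate 6 and ethanol replicate 7 left out, ribosomal protein genes left out of the scaling, a tested fold of 1.2, and summed paralogs.

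In each comparison the called members with the 3 largest and the 3 smallest fold changes are named with values, or the member of smallest p where none was called; some members are counted in the set but not reported by name here. From other lists the 2 genes with the smallest p were eligible. Promoters and coding sequences came from RefSeq TAIR10.1, whose annotation matched 26714 of 27416 identifiers. No protein sequences were used.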

Additional observations from a re-analysis of the deposited data

Results flagged for a closer look

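In the groups of 8 libraries of the 22 genes named with values and of the share of reads on the whole set, 115 groups in all, 2 libraries stood far from the rest of their group; chance gives such a gap in about 1 in 20 groups. RPS15A had 619.6 CPM in water replicate 7, where the others had 665 to 703. RPS14A had 296 CPM in frozen water replicate 6, where the others had 340 to 377.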

How the results depend on the processing

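From start to ethanol and from water to ethanol the counts of lower genes stayed at 56 and at 53 to 54 with any 1 library left out (scaling held or set anew). In both of these comparisons the set median kept its sign in all alternatives. From start to water the count of 45 was 38 to 47 with 1 library left out and the scaling factors and tested genes held. It was 28 to 39 with both set anew, where the TMM reference library moved from water replicate 6 to another library in each fit. It was 31 without water replicate 6 and ethanol replicate 7. Against a fold of 1.2 the lower counts were 1 (start to water), 17 (water to ethanol), 0 (freezing on water) and 0 (ethanol against water, frozen), and the higher count after freezing on ethanol was 0. With the set's paralogs summed to 27 proteins they were 22 (start to water), 27 (start to ethanol) and 27 (water to ethanol). They were 12 for freezing on water and 10 for ethanol against water among frozen plants, and 2 rose after freezing on ethanol. The shares of all genes called under these settings are not given here.

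With the length trend removed, 0 genes were lower after freezing on water, where the median became 0.0424, RPS10C 0.0393 and RPL8A 0.016, and 45 were higher after freezing on ethanol. With 1 library also left out these counts were 0 to 1 higher and 26 to 46 higher. With the trend kept they were 8 to 22 lower and 0 to 9 higher, or 7 to 19 and 0 to 11 with the scaling held. After freezing on ethanol RLE gave 2, DESeq2 2 and only the compared groups 0. Among frozen plants, ethanol against water gave 8 with only the compared groups, 12 after thinning and 5 to 33 with 1 library left out (7 to 35 with the scaling held). The interaction gave 1 gene after thinning and 0 to 1 with 1 library left out. For these the cause was not tested.

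The deviations of same-numbered libraries from their group means had a median r of 0.00607 over 80 pairs (-0.119 to 0.325). The highest r was that of water replicate 6 and frozen water replicate 6. Of the 40 libraries 9 correlated best with their own number. With the replicate number as a block, 48 genes were lower from start to water, 33 among frozen plants, and the interaction gave 1 higher. Across 1550 values of single named genes under alternatives, 1211 kept their call, 330 lost it, 7 gained it and 2 changed sign. Counts of 9 to 48 reads limited RPS9C.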
